A study of Mus musculus with 24 samples.

Results

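The AP-1 family is a set of basic leucine zipper (bZIP) transcription factors that bind DNA as dimers. Its mRNAs were followed here in Tconv CD4+ cells, the conventional helper T cells that remain when CD25+ cells are removed from splenic CD4+ cells. The 10 members were taken by symbol: *Fos*, *Fosb*, *Fosl1* and *Fosl2* of the FOS subfamily, *Jun*, *Junb* and *Jund* of the JUN subfamily, *Batf* and *Batf3* of the BATF subfamily, and *Atf3*. They are 10 of the 55414 genes listed in the count table, and all 10 passed the filter on low counts together with the rest of the 10566 genes tested. The list was drawn up with results of these data known, and which values entered that choice is not recorded. Levels and activation differences of the members are therefore given as a description, and counts of members called are read no further than as counts.

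The study asked how mitochondrial DNA (mtDNA) haplotype bears on T cell function. Cells came from conplastic mice, which carry the same C57BL/6J nuclear genome with either the mtDNA of that strain (mtDNA B6, labelled WT) or the mtDNA of the NZB strain (mtDNA NZB). Cells of each haplotype were left resting or were activated for 72 h with beads carrying antibodies to CD3 and CD28, with 6 libraries in each of the 4 groups and 24 libraries in all. The cells were purified on magnetic columns rather than sorted, and the labels do not say how many mice stand behind the 6 libraries of a group, so p-values measure the spread between these libraries. The legends of the study give an n per model below the number of libraries in a group here, without saying what it counts, and libraries of a group may therefore share a mouse. Per the study's methods most of its mice were young adult males, without a statement for these libraries. Whether the resting cells were also kept in culture is not given in the sources used here, and the methods name IL-2 along with the beads in wording that can cover these cells. Stimulation, IL-2 and time in culture therefore cannot be told apart.

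FOS proteins do not form stable dimers with each other and bind DNA together with JUN proteins, whereas JUN proteins can also pair among themselves. BATF proteins lack the activation domain of FOS, pair with JUN proteins, and in T cells act with IRF4 or IRF8 on composite DNA sites. In T cells, signals from the antigen receptor and CD28 reach AP-1 through the ERK and JNK kinases, and AP-1 works with NFAT at cytokine genes such as *Il2*. *Fos*, *Fosb*, *Jun*, *Junb* and *Atf3* are immediate-early genes, whose transcripts appear quickly after a stimulus or stress, including that of tissue dissociation, and decay quickly.

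Stretches of the members' promoters that hold known control elements are shown because immediate-early induction is classically traced to them. Promoters were taken from 500 bases before to 50 bases after the start of the canonical transcript in the mouse GRCm39 genome, and were searched on both strands. *Fos* and *Fosb* held a CArG box, the element bound by serum response factor (SRF), which was present in 2.9% of 21770 promoters. The 30-base windows around it are printed 5′ to 3′ on the gene's strand with the element in capitals. The *Fos* window begins its element 303 bases before the start (chr12:85520345-85520374, plus strand), and the *Fosb* window 266 bases before it (chr7:19044223-19044252, minus strand).
Fos CArG box: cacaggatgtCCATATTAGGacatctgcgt
Fosb CArG box: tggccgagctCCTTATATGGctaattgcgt

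The core of the cyclic AMP response element, TGACGT or ACGTCA on the other strand, was found in 6 of 10 members and in 11.3% of all promoters. One window is shown for each of the 6, with the core in capitals. They lie at chr12:85520586-85520615 on the plus strand for *Fos*, chr7:19044276-19044305 on the minus strand for *Fosb*, chr4:94940746-94940775 on the minus strand for *Jun*, chr12:85733384-85733413 on the plus strand for *Batf* and chr1:190915521-190915550 on the minus strand for *Atf3*. For *Jund* the window is chr8:71151374-71151403 on the plus strand, and there the capitals mark the full element TGACGTCA, which contains the core and occurred in 2.71% of promoters.
Fos CRE core: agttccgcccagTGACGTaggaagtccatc
Fosb CRE core: agggattccctcTGACGTaattgctaggat
Jun CRE core: agccaaaccaagACGTCAgcccacaatgca
Jund CRE: ccccacccccaTGACGTCAacccacaatgc
Batf CRE core: tttctaacttgtTGACGTttccgcccatgt
Atf3 CRE core: attaatagcattACGTCAgcctgggattgg

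The element to which AP-1 itself binds, TGACTCA, was in 8.21% of promoters and in 0 of the 10 members. *Jun* held the related letters TGACATCA, present in 4.2% of promoters, 45 bases before its start (chr4:94940486-94940515, minus strand, capitals below). For *Fosl1*, *Fosl2*, *Junb* and *Batf3* none of these letters were in the window searched. A match is a description of the sequence, and binding was not measured.
Jun variant element: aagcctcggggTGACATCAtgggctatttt

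Counts are of unique molecular identifiers (UMIs), each marking 1 captured mRNA molecule at its 3′ end. Levels are given in CPM, the count per 1000000 of an effective library total. That total is the sum over the genes tested multiplied by the TMM factor, the scaling between libraries used in the fit, and differs from the plain UMI total. Library totals ran from 51409 UMIs in resting NZB 2 to 6449395 in activated NZB 6, and the second smallest was 641467 in activated NZB 1. In resting NZB 2 a single UMI was worth 16.9 CPM, and a count of 0 there allows up to 50.8 CPM. The 6 T cell markers (*Cd3d*, *Cd3e*, *Cd3g*, *Cd4*, *Thy1*, *Lck*) summed to a median of 3795 CPM in resting and 4239 CPM in activated mtDNA B6 cells, and of 3745 and 4699 CPM in those of mtDNA NZB. Of the resting mtDNA NZB libraries, replicate 2 stood apart by its depth, and replicates 5 and 6 by the levels of several members described below. Replicate 6 also had the highest sum of 8 neutrophil markers, 17787 CPM, against 264 to 6013 CPM in the other 11 resting libraries, and the lowest T cell marker sum of all 24 libraries, 2381 CPM.

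After activation most of the family was lower, in both haplotypes. A gene was called where the edgeR adjusted p was 0.05 or less and the size of the log2 fold change was 1 or more. In mtDNA B6 cells 8 of 10 members were called lower and 0 higher, beside 10.6% lower, 7.06% higher and 17.7% in either direction over all genes tested. With mtDNA NZB 8 of 10 members were again called lower and 0 higher, beside 14.0% lower, 9.46% higher and 23.4% in either direction. Because the members may have been chosen on these contrasts, nothing is read from these counts. The median log2 fold change over the members was -2.97 in mtDNA B6 and -4.09 in mtDNA NZB, beside -0.03 and -0.06 over all genes tested.

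**Figure D1:**
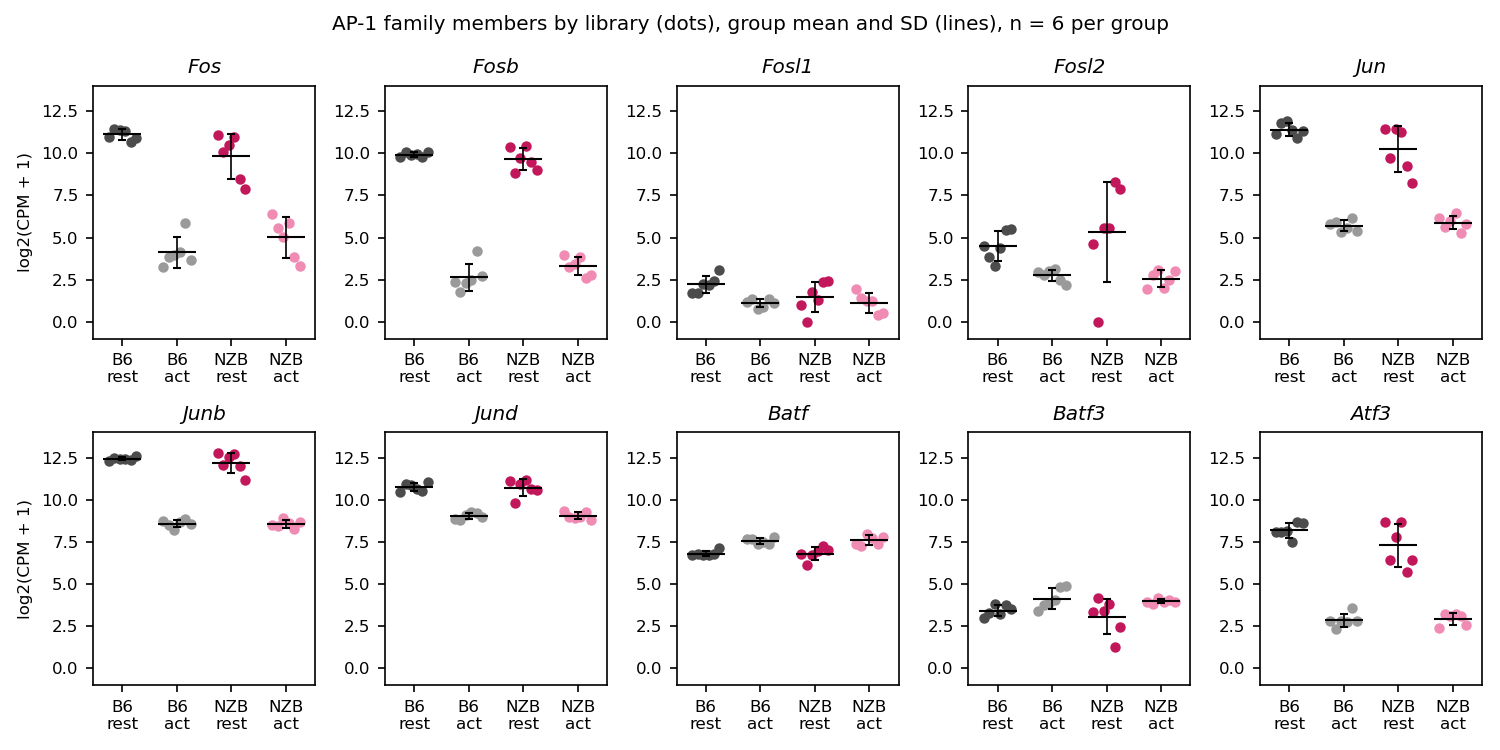
Levels of the 10 AP-1 family members in every library, on a log2(CPM + 1) axis, in resting (rest) and activated (act) cells with mtDNA B6 or mtDNA NZB. Dots are libraries and lines the mean and SD of that axis (n = 6 per group); *Fos*, *Fosb*, *Jun*, *Junb* and *Atf3* separate resting from activated libraries in both haplotypes, and for every member except *Fosb* the resting mtDNA NZB libraries spread most.

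*Fos*, the founding partner of JUN in AP-1, ranged in resting mtDNA B6 libraries from 1651 to 2820 CPM with a median of 2300 CPM. In activated mtDNA B6 libraries it ranged from 8.4 to 58.3 CPM with a median of 14.0 CPM. Every activated library was below every resting one, and the log2 fold change was -6.77 (SE 0.63). With mtDNA NZB the resting range was 236.1 to 2207 CPM with a median of 1253 CPM, and the activated range 9.1 to 84.8 CPM with a median of 38.9 CPM. These groups did not overlap either, although the resting libraries spread much more widely than those of mtDNA B6, and the log2 fold change was -5.04 (SE 0.59).

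*Fosb*, a close relative of *Fos* and likewise an immediate-early gene, had the most negative fold change of the family in both haplotypes. In mtDNA B6 cells it ranged from 880.1 to 1076 CPM at rest (median 974.1) and from 2.4 to 17.1 CPM after activation (median 4.3), a log2 fold change of -7.25 (SE 0.39). The mtDNA NZB libraries ranged from 457.3 to 1373 CPM at rest (median 786.0) and from 5.0 to 14.4 CPM after activation (median 9.1), a log2 fold change of -6.71 (SE 0.39). The activated libraries lay below all resting libraries in both haplotypes.

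*Fosl1* and *Fosl2* encode FRA1 and FRA2, FOS relatives that lack the FOS activation domain. *Fosl1* was close to the limit of detection, with 0 to 25 UMIs in any library. Its level in mtDNA B6 cells was 2.2 to 7.5 CPM at rest and 0.66 to 1.5 CPM after activation, a log2 fold change of -1.71 (SE 0.40) with no overlap. In mtDNA NZB cells the range was 0 to 4.4 CPM at rest and 0.31 to 2.9 CPM after activation, and the groups overlapped. The log2 fold change there was -1.29 (SE 0.48), and it was not called without either resting NZB 5 (-1.09) or resting NZB 6 (-1.03), nor without activated NZB 5 (-1.08) or activated NZB 6 (-0.99). Without resting NZB 5 and 6 together it was -0.57 (edgeR adjusted p = 0.399). Without resting NZB 2, resting NZB 6 and activated NZB 6 it was -0.74 (edgeR adjusted p = 0.245). With the label number, which may mark a shared preparation, as a replicate block it was -1.16 and not called (adjusted p = 0.195). The last 1000 bases of *Fosl1* overlap the antisense coding gene *Ccdc85b*, and since the strand used in counting was not given in the sources used here, reads of the pair cannot be told apart.

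*Fosl2* ranged from 8.8 to 45.1 CPM in resting (median 20.4) and from 3.6 to 7.6 CPM in activated mtDNA B6 libraries (median 6.2), with no overlap. Its log2 fold change in mtDNA B6 cells was -2.09 (SE 0.56). With mtDNA NZB it ranged from 0 to 313.9 CPM at rest (median 46.7) and from 2.9 to 7.5 CPM after activation (median 5.3). These groups overlapped through resting NZB 2, whose count of 0 lies under the limit its depth allows. The log2 fold change of -4.46 (SE 0.59) in mtDNA NZB was -2.67 without resting NZB 5 and 6, an alternative chosen after the values were seen.

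*Jun*, which encodes c-JUN, the main target of the JNK kinases, ranged from 1898 to 3890 CPM in resting mtDNA B6 libraries (median 2653) and from 38.7 to 70.1 CPM in activated ones (median 50.4). The log2 fold change was -5.76 (SE 0.44). With mtDNA NZB *Jun* ranged from 305.5 to 2837 CPM at rest (median 1665) and from 37.8 to 87.6 CPM after activation (median 58.4), a log2 fold change of -4.81 (SE 0.43). Resting and activated libraries were separate in both haplotypes.

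*Junb*, whose product has weaker transactivation than c-JUN and takes part in helper T cell differentiation, ranged from 5121 to 6237 CPM at rest (median 5528) and from 299.4 to 471.6 CPM after activation (median 391.6) in mtDNA B6 cells. The mtDNA NZB range was from 2363 to 6975 CPM at rest (median 5109) and from 303.5 to 489.8 CPM after activation (median 383.9). The log2 fold changes were -3.84 (SE 0.20) and -3.71 (SE 0.20), and neither pair of groups overlapped. The last 1000 bases of *Junb* overlap the antisense coding gene *Prdx2*.

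*Jund*, the JUN member that many resting cells express constitutively, had the smallest difference of its subfamily. It ranged from 1405 to 2119 CPM at rest (median 1740) and from 452.5 to 612.4 CPM after activation (median 524.1) in mtDNA B6 cells, a log2 fold change of -1.71 (SE 0.16). For mtDNA NZB the ranges were 897.7 to 2278 CPM (median 1800) and 451.8 to 639.8 CPM (median 504.3), a log2 fold change of -1.73 (SE 0.16). All activated libraries were below all resting ones.

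*Batf*, required for helper cells of the type that makes IL-17, was higher in activated cells, but by less than the fold needed for a call. In mtDNA B6 libraries it ranged from 103.4 to 137.3 CPM at rest (median 105.7) and from 164.9 to 217.9 CPM after activation (median 191.7), with no overlap. The log2 fold change was 0.77 (SE 0.13) in mtDNA B6. In mtDNA NZB libraries it ranged from 67.8 to 154.4 CPM at rest (median 116.0) and from 153.0 to 254.6 CPM after activation (median 190.4), so that the groups just touched, and the log2 fold change was 0.70 (SE 0.14). *Batf3*, best known for its role in dendritic cell development, was at 7.0 to 13.2 CPM at rest and 9.4 to 28.5 CPM after activation in mtDNA B6 cells. Its groups overlapped in both haplotypes, with log2 fold changes of 0.83 (SE 0.30) and 0.92 (SE 0.34), and it was not called in either. In mtDNA NZB it was called higher without resting NZB 3 (1.01) or resting NZB 4 (1.20).

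*Atf3*, a stress-induced bZIP factor that can pair with JUN proteins, ranged from 177.0 to 413.4 CPM at rest (median 274.2) and from 4.0 to 10.7 CPM after activation (median 5.9) in mtDNA B6 cells. With mtDNA NZB the range was from 52.2 to 414.7 CPM at rest (median 153.8) and from 4.3 to 8.3 CPM after activation (median 7.5). The log2 fold changes were -5.53 (SE 0.43) and -5.04 (SE 0.44), with no overlap in either haplotype.

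**Figure D2:**
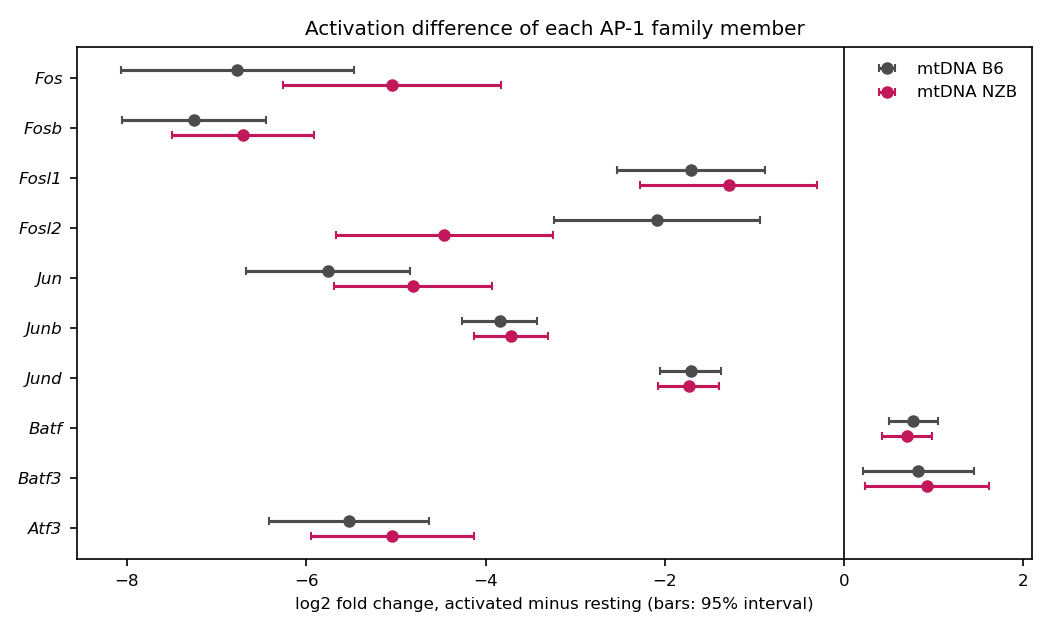
Log2 fold change of each member between activated and resting cells (horizontal axis) in mtDNA B6 and mtDNA NZB, from the edgeR fit of all 24 libraries. Points are estimates and bars 95% intervals; *Batf* and *Batf3* lie to the right of 0, and the other 8 members lie to the left, from -1.29 for *Fosl1* in mtDNA NZB to -7.25 for *Fosb* in mtDNA B6.

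In all, 8 members in mtDNA B6 had every activated library below every resting one, as did 16.4% of all genes tested, and *Batf* had every activated library above, as did 15.4%. In mtDNA NZB 6 members (*Fos*, *Fosb*, *Jun*, *Junb*, *Jund* and *Atf3*) had every activated library below, as did 6.95% of all genes, and 0 had every one above, as did 11.9%. The direction of every member's activation difference was the same under every alternative fit, and *Fosl1* in mtDNA NZB turned only in 2 comparisons within library sets, given further on.

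The family as a whole took a smaller part of the mRNA after activation, and its make-up was different. The 10 members together made up a median of 1.36% of all UMIs in resting mtDNA B6 libraries and 1.09% in resting mtDNA NZB libraries, where the range was 0.497% to 1.51%. After activation the median was 0.125% in both haplotypes. Within the family's own UMIs, *Fos* went from a median of 17.1% to 1.24% in mtDNA B6 and from 11.8% to 3.18% in mtDNA NZB. *Jund* went the other way, from 12.2% to 42.1% in mtDNA B6 and from 14.8% to 41.7% in mtDNA NZB, although its own level was lower. *Batf* went as a share from 0.807% to 16.3% in mtDNA B6 and from 0.845% to 15.2% in mtDNA NZB. *Junb* held 41.2% at rest and 31.9% after activation in mtDNA B6 cells. These are shares of captured 3′ ends, and proteins were not measured.

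**Figure D3:**
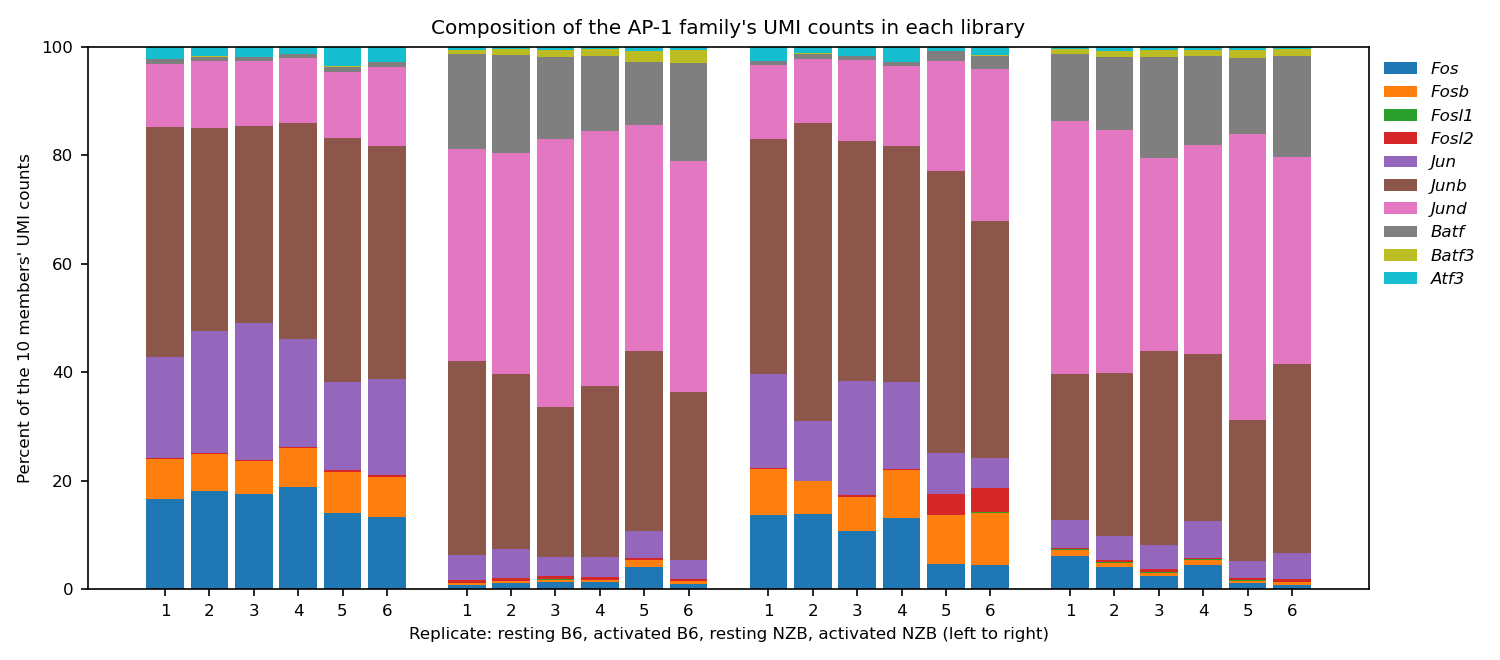
Share of each member in the summed UMI counts of the 10 members, as a percentage (vertical axis), in each of the 24 libraries, grouped as resting B6, activated B6, resting NZB and activated NZB. The *Jund* and *Batf* segments are wider in all 12 activated libraries and the *Fos* segment narrower than in most resting ones, and resting NZB 5 and 6 have a *Fosl2* segment that is hardly visible elsewhere.

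Markers of several other cell types moved with activation as well, some down and some up, while those of B cells had no common direction. The sum of 6 B cell markers had medians of 519.1 CPM at rest and 690.4 CPM after activation in mtDNA B6. In mtDNA NZB the medians were 665.6 and 600.5 CPM, and activated libraries ranged from 101.8 to 1326 CPM. The sum of 6 macrophage and monocyte markers went from a median of 1473 to 25.8 CPM in mtDNA B6 cells and from 830 to 48.6 CPM in mtDNA NZB cells, and that of 8 neutrophil markers from 1868 to 2.9 CPM and from 562.0 to 36.6 CPM. The macrophage and monocyte sum ranged from 817.5 to 2637 CPM in resting and from 22.0 to 79.6 CPM in activated mtDNA B6 libraries, and from 457.3 to 2806 CPM and from 10.8 to 109.3 CPM in those of mtDNA NZB. The neutrophil sum ranged from 502.7 to 6013 CPM and from 0.79 to 40.7 CPM in mtDNA B6, and from 263.5 to 17787 CPM and from 1.0 to 148.1 CPM in mtDNA NZB. The sum of 6 erythroid markers went from a median of 1360 to 10.2 CPM in mtDNA B6 and from 237.0 to 15.5 CPM in mtDNA NZB. The CD8 markers *Cd8a* and *Cd8b1* summed to 52.3 to 111.2 CPM in resting and 161.3 to 405.3 CPM in activated mtDNA B6 libraries, and to 16.9 to 141.9 CPM and 82.0 to 533.6 CPM in those of mtDNA NZB. The 4 platelet markers summed to 8.3 to 53.4 CPM and 72.5 to 503.8 CPM in mtDNA B6, and to 10.5 to 50.8 CPM and 18.0 to 243.8 CPM in mtDNA NZB. Most of the activated sums came from *Pf4*. It averaged 170.0 CPM of a mean sum of 200.9 CPM in mtDNA B6, and 99.3 of 119.4 CPM in mtDNA NZB. *Ppbp* averaged 0.86 CPM in activated cells of each haplotype. Of the 6 macrophage and monocyte markers, *Csf1r* was at 0 in 2, *Adgre1* in 1 and *Fcgr1* in 6 of the 6 activated mtDNA B6 libraries. In those of mtDNA NZB *Csf1r* was at 0 in 1 and *Fcgr1* in 6. *Lyz2*, *Cd68* and *Itgam* had counts in every activated library, with means of 17.6, 11.5 and 5.6 CPM in mtDNA B6. *Fcgr1* averaged only 2.3 CPM in resting mtDNA B6 cells and did not pass the filter on low counts. The part of these cells in the members' differences was not tested, and in bulk RNA fewer cells of a type and less RNA per cell cannot be told apart.

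At rest, haplotype was compared next. One of 10 members was called, *Fosl2*, higher in mtDNA NZB, where 0.672% of all genes were called higher, 0.341% lower and 1.01% in either direction. That background of 107 genes in all turned on single libraries: it was 0 without resting NZB 5 or resting B6 4, 2 without resting B6 1, 6 without resting B6 3 and 18 without resting B6 5. It was 162 to 289 without resting NZB 1, 3, 4 or 6, one at a time, and 69 without resting B6 6. Without resting NZB 2, resting NZB 6 and activated NZB 6 it was 323 of 10826 genes. The log2 difference of *Fosl2* was 2.31 (SE 0.50, edgeR adjusted p = 0.0298 over all genes tested). In resting mtDNA B6 libraries *Fosl2* lay between 8.8 and 45.1 CPM. The 6 resting mtDNA NZB libraries had 23.4, 0, 46.3, 47.0, 313.9 and 238.1 CPM, so that only replicates 5 and 6 were far above the mtDNA B6 range and the groups overlapped. Without those 2 libraries the difference was 0.53 (edgeR adjusted p = 0.57), in a fit that called 91 of 10924 genes. The call was also lost on leaving out resting NZB 5 alone (1.72, adjusted p = 0.142), or resting B6 1 (2.26, adjusted p = 0.0706), resting B6 3 (2.11, adjusted p = 0.0619) or resting B6 4 (2.25, adjusted p = 0.0793).

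Most other members also lay apart in resting NZB 5 and 6. *Fos* was at 361.6 and 236.1 CPM in resting NZB 5 and 6, against 1067 to 2820 CPM in the other 10 resting libraries. *Jun* was at 597.6 and 305.5 CPM there, against 846.9 to 3890 CPM. *Atf3* was at 52.2 and 83.5 CPM, against 84.7 to 414.7 CPM, and *Batf3* at 1.4 and 4.4 CPM, against 7.0 to 16.9 CPM. *Junb* was at 4097 and 2363 CPM, against 4218 to 6975 CPM. *Batf* was at 154.4 and 127.3 CPM, against 67.8 to 137.3 CPM, so that replicate 5 was the highest resting library. *Jund* and *Fosl1* were within the range of the others. *Fosb*, at 710.3 and 524.8 CPM, was within it only through the shallow library resting NZB 2, at 457.3 CPM. The next lowest of the others for *Fosb* was resting NZB 3, at 861.7 CPM. Of genes outside the family, *Dusp1*, a phosphatase that switches off MAP kinases, was at 352.0 and 197.1 CPM, against 660.6 to 1577 CPM. *Crem*, a bZIP gene of the cyclic AMP response, was at 508.2 and 373.8 CPM, against 16.2 to 43.1 CPM. *Crem* was chosen for display after its values were seen. The neutrophil marker sum differed between these libraries, at 263.5 CPM in replicate 5 and 17787 CPM in replicate 6, and its part was not tested.

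**Figure D4:**
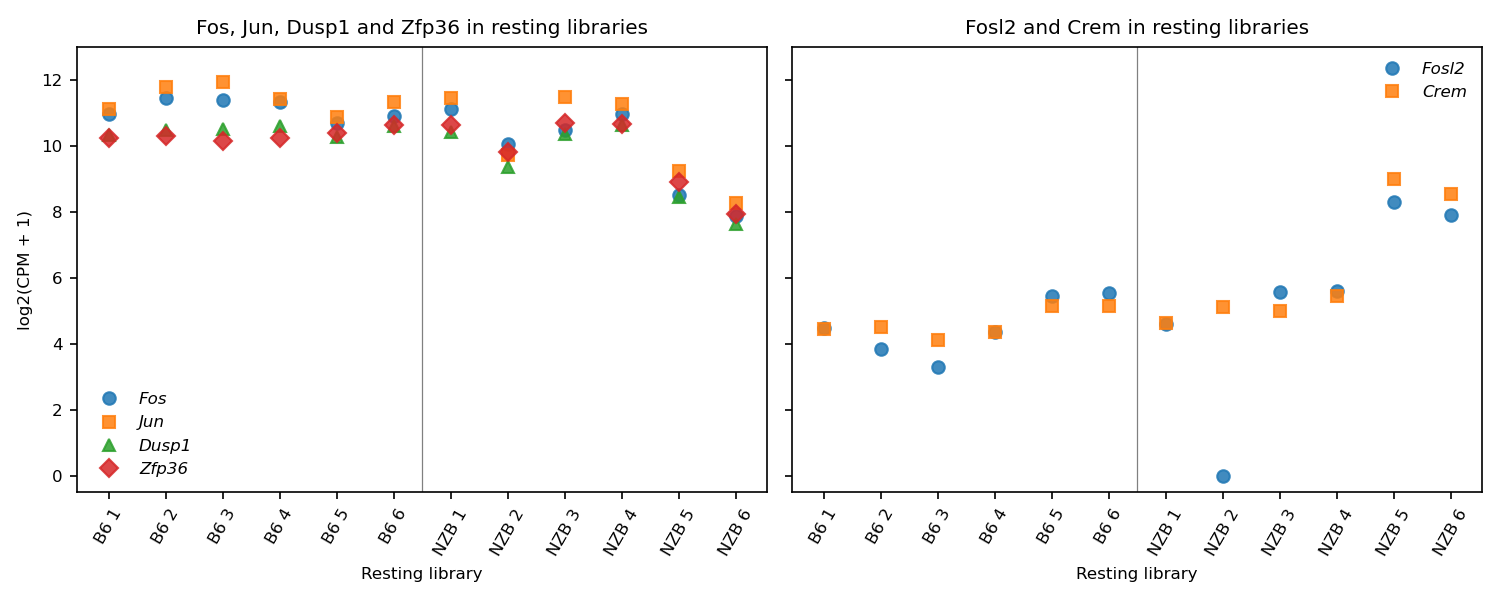
Levels on a log2(CPM + 1) axis in the 12 resting libraries, with mtDNA B6 to the left and mtDNA NZB to the right of the vertical line in each panel; symbols are single libraries. In NZB 5 and 6, *Fos*, *Jun*, *Dusp1* and *Zfp36* (left) were below the other 10 libraries and *Fosl2* and *Crem* (right) above them, and *Fosl2* in NZB 2 was at 0 UMIs.

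The remaining members were not called at rest. *Fos* was lower in mtDNA NZB with a log2 difference of -0.89 (95% interval -1.90 to 0.12, adjusted p = 0.302), and *Jun* with one of -0.75 (95% interval -1.50 to -0.00, adjusted p = 0.237). Without resting NZB 5 and 6 these were -0.43 and -0.31. The other 7 members had differences from -0.62 for *Fosl1* to 0.12 for *Batf*.

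The libraries fall into 3 sets by reads per UMI (1.88 to 1.96, 2.11 to 2.24 and 2.68 to 2.80), which the labels do not name and which are unevenly spread over the groups. Resting mtDNA B6 libraries numbered 0, 4 and 2 over the sets in that order, and activated ones 5, 1 and 0. Resting mtDNA NZB libraries numbered 1, 1 and 4 over the sets in that order, and activated ones 2 in each. Within the third set the *Fosl2* difference at rest was -0.20 and within the second 0.63, as differences of mean log2 levels. The third set holds resting NZB 2, 4, 5 and 6, at 0, 47.0, 313.9 and 238.1 CPM of *Fosl2*. Its resting B6 libraries, replicates 5 and 6, were at 43.1 and 45.1 CPM. The value of -0.20 thus includes the count of 0 in resting NZB 2, which allows up to 50.8 CPM, and does not show that the difference is absent there. With the set as a term in the fit the *Fosl2* difference was 1.59 (edgeR adjusted p = 0.118). For *Fos* the values at rest within the sets were -0.18 in the second and -1.45 in the third. The activation difference of *Fos* within sets was -5.41 in mtDNA B6 (second set, 1 activated library) and -6.95, -5.41 and -3.64 in mtDNA NZB. For *Fosl1* in mtDNA NZB it was -1.57 in the first set but 0.36 in the second and 0.15 in the third.

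Between activated cells of the 2 haplotypes, no member's difference passed the test. Zero of 10 members were called and 0 had an unadjusted p under 0.05 by edgeR, where 0 of all genes tested (0.0%) were called and 327 had an unadjusted p under 0.05, and DESeq2 also called 0 members. The largest difference was that of *Fos*, 0.84 higher in mtDNA NZB on the log2 scale with a 95% interval from -0.29 to 1.96 (adjusted p = 1). *Jun* differed by 0.20 (95% interval -0.59 to 0.98), *Junb* by -0.01 (-0.38 to 0.36), *Jund* by 0.01 (-0.31 to 0.34) and *Batf* by 0.05 (-0.22 to 0.32). For *Junb*, *Jund* and *Batf* the intervals leave out a change of 1 log2 unit in either direction, while for *Fos* and *Fosl2* (-1.40 to 1.27) they do not.

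Whether activation acted differently in the 2 haplotypes was tested as the difference of the activation responses, mtDNA NZB minus mtDNA B6. Zero of 10 members passed an adjusted p of 0.05 by edgeR, and 0.0% of all genes did. DESeq2 with the study's settings called 0 members too, and 1 of all genes. The background depended on the libraries used. Without resting NZB 2, resting NZB 6 and activated NZB 6, edgeR called 113 of 10826 genes and 0 members. In the edgeR fit of all libraries 2 members and 1512 genes had an unadjusted p under 0.05. The members were *Fosl2*, with a difference of -2.38 (SE 0.81, adjusted p = 0.228), and *Fos*, with 1.73 (SE 0.73, adjusted p = 0.291). Without resting NZB 5 and 6 they were -0.62 and 1.22. The comparison shares all its libraries with those above.

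The wider pathway was described with 6 gene lists. Of 13 tested genes for feedback phosphatases and mRNA decay factors, which limit MAP kinase signals and the life of immediate-early mRNAs, 10 were called lower in mtDNA B6 and 12 in mtDNA NZB, with 0 higher. *Dusp1* had the largest fall, -6.36 (SE 0.47) in mtDNA B6 and -5.30 in mtDNA NZB. The median log2 fold change over the list was -1.58 and -1.81, beside the -0.03 and -0.06 of all genes. Of 16 other bZIP genes, 4 were called lower in mtDNA B6 and 9 in mtDNA NZB, with 0 higher and medians of -0.37 and -1.06. *Maff*, a small MAF protein gene, had the largest fall, with log2 fold changes of -4.36 and -5.01.

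Of 18 kinases and factors upstream of AP-1, 1 was called lower in each haplotype and 0 higher, beside the 10.6% and 14.0% of all genes called lower, with medians of 0.11 and -0.03. With no fold limit, 5 of the 18 in mtDNA B6 and 6 in mtDNA NZB had an edgeR adjusted p of 0.05 or less. In mtDNA B6 it was *Mapk8*, encoding the kinase JNK1, at -1.29 and a mean level of 3.2 CPM at rest. In mtDNA NZB it was *Mef2d*, a MEF2 factor, at -1.53, with -0.36 in mtDNA B6. It was at 1001 and 542.0 CPM in resting NZB 5 and 6, against 169.4 to 356.0 CPM in the other 10 resting libraries. *Srf*, whose product binds the CArG box, differed by 0.45 and 0.47. Of 8 partners on composite sites, *Irf8* was called higher in mtDNA B6 (1.28) and, at just under 1, not in mtDNA NZB. The medians over these partners were 0.45 and -0.11. Among activated mtDNA NZB libraries *Irf8* was lowest in replicate 1 (176.9 CPM) and highest in replicate 6 (422.5 CPM). The B cell marker sums there were 112.2 and 1326 CPM. The part of B cells in the *Irf8* levels was not tested. *Runx1*, a Runt-domain factor, was called lower in both haplotypes (-1.22 in each).

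Target genes of AP-1 in T cells went both ways: 3 of 10 tested were called higher and 2 lower in each haplotype, beside 7.06% higher and 10.6% lower of all genes in mtDNA B6 and 9.46% and 14.0% in mtDNA NZB, with medians of 0.33 and -0.47. The 3 higher were *Gzmb* and the cytokine genes *Il13* and *Il17a* in both haplotypes. Over all resting libraries *Il13* was at 0 to 3.7 CPM and *Il17a* at 0 to 1.7 CPM, so both passed the filter on low counts through activated libraries. In activated mtDNA NZB libraries *Il17a* was at 0, 1.3, 2.0, 11.8, 1.9 and 21.7 CPM. The 2 lower were *Cd69* and *Tnf* in mtDNA B6, and *Cd69* and *Fasl* in mtDNA NZB. *Gzmb*, encoding the cytotoxic protease granzyme B, had the largest rise, 4.47 in mtDNA B6 and 4.06 in mtDNA NZB. The CD8 marker sum given above was also higher in activated libraries, and the part of CD8 cells was not tested. *Cd69*, an early activation antigen that keeps cells in tissue, had the largest fall, -3.73 and -3.62. Of 12 tested genes for handling and heat shock, 10 were called lower in mtDNA B6 and 9 in mtDNA NZB, with 0 higher and medians of -2.61 and -2.31. *Hspa1a*, an inducible heat shock protein gene with the near-identical copy *Hspa1b*, so that its counts are uncertain, had the largest fall, -8.06 and -5.28. Its level at rest ranged from 41.6 to 11569 CPM over the 10 resting libraries other than NZB 5 and 6. The part of cell handling in the members' levels at rest was not tested.

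Between haplotypes at rest, 6 of 77 tested genes of the lists were called, each higher in mtDNA NZB, beside 0.672% of all genes called higher and 1.01% in either direction. They were *Crem* (2.90, edgeR adjusted p = 0.0265), *Mef2d* (1.07), *Dusp10* (1.54), *Spred2* (1.33), *Il2* (1.53) and *Fasl* (1.04). The cytokine gene *Il2* was at 10.1 and 11.2 CPM in resting NZB 5 and 6, against 0 to 4.5 CPM in the other 10 resting libraries. Without resting NZB 5 and 6, 0 of the 6 were called, beside 91 of all 10924 genes tested in that fit. The log2 differences of the 6 ran from 0.06 for *Spred2* to 1.07 for *Dusp10*, with edgeR adjusted p from 0.12 to 0.952. Between activated cells 0 list genes were called.

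The genes whose pattern over the 24 libraries was most like that of *Fos*, members and unnamed genes left out, were *Dusp1* (Pearson r of log2 CPM 0.992), *Rhob* (0.971) and *Klf6* (0.971). For *Batf* they were *Unc119b* (0.966), *Bcl3* (0.938) and *Pim2* (0.932). Within the family *Fos* went most closely with *Jun* (0.977) and *Fosb* (0.972) and less so with *Fosl2* (0.427), and its r was negative with *Batf* (-0.850) and *Batf3* (-0.379). These values describe 24 points that form a resting and an activated cluster and share their library depth.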

How the data were processed

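Poly(A) RNA of Tconv CD4+ cells was profiled by bulk MARS-seq, a 3′ method with UMIs, in 24 libraries of 4 groups taken from the labels. Per the study's methods, the authors trimmed reads with cutadapt, aligned them with STAR to 3′ ends of Ensembl genes on GRCm39, counted them with HTSeq, removed duplicate UMIs and corrected for UMI saturation. They deposited UMI-corrected counts per gene, which were used here, and a second table of larger counts, read as counts before duplicates were removed, though no source names that step. Of the per-sample columns, 1 fitted none of the samples and was left out. The strand of counting and tool versions were not given in the sources used here.

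Gene symbols came from GENCODE vM39, which held 24820 of the 25030 genes with a count. The counts were fitted with edgeR 4.0.16 (R 4.3.3) across 4 groups (TMM scaling, filterByExpr with a minimum count of 10, quasi-likelihood F test, Benjamini-Hochberg adjustment over 10566 genes), and the fit was tested on simulated counts with known changes. The standard error is the log2 fold change divided by the square root of F. DESeq2 1.42.0 with the study's settings, another scaling, other filters, the second table, 12-library fits, library sets and left-out libraries were tried as alternatives. Library totals ran from 51409 to 6449395. The floor given for a count of 0 covers counting error only, and the 95% intervals come from the edgeR fit and include the spread between libraries. The smallest chi-square per degree of freedom between replicates was 2.77, so no 2 libraries were treated as 1. The members and the gene lists were chosen with earlier results of these data known. Beside the members, the text names the gene of each list with the largest called rise or fall in each haplotype at a group mean of at least 10 CPM, and the 3 genes outside the family most like *Fos* and *Batf*. Genes of the lists beyond these, such as *Srf*, *Crem* and *Zfp36*, were named outside that rule, after their values were seen.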

Additional observations from a re-analysis of the deposited data

Results flagged for a closer look

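In 4 of the 40 sets of 6 libraries, 1 for each member and group, a library lay far from the others by Dixon's test at the 95% level, which divides the gap to the nearest library by the whole range. Chance gives about 1 in 20. Of these, 3 were in activated B6 5, which had 58.3 CPM of *Fos* (gap over range 0.829), 17.1 CPM of *Fosb* (0.789) and 10.7 CPM of *Atf3* (0.685), the highest values of its group for each. The other was *Batf* in resting B6 6, at 137.3 CPM (0.818).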

How the results depend on the processing

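The number of members called kept within 1.5 times its value under every alternative for activation (8 to 8 in mtDNA B6 and 7 to 9 in mtDNA NZB when single libraries were left out), for haplotype after activation (0 to 0) and for the difference of responses (0 to 0). At rest it ranged from 0 to 1 when single libraries were left out. It also went from 1 to 0 with the 12 libraries of the 2 groups alone, where 0 of 9907 genes were called. The same held with the library set as a term (1 of 10566 genes called) and without resting NZB 5 and 6 (91 of 10924). No member changed direction in activation in any of these fits. Over the alternative fits, 17 of 349 haplotype values of the members turned sign at rest and 28 of 348 after activation. For the difference of responses 24 of 349 did, and 0 of the values that turned were called. *Fosl1* in mtDNA NZB was not called with no filter on low counts (-1.25) or the library set as a term (-0.90), nor in mtDNA B6 with the latter (-0.99), and *Batf3* in mtDNA NZB was called with the second table (1.09) and without resting NZB 3 (1.01) or 4 (1.20). Leaving out resting NZB 2, resting NZB 6 and activated NZB 6 kept the call of *Fosl2* at rest (2.06). The cause of these changes was not tested.

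Label numbers are shared by 9 pairs of a resting and an activated library, whose deviations from their group means correlated from -0.158 to 0.253, so the deviations do not show pairing in every pair. Per the methods the isolated cells were divided into resting and activated, so a shared number may still mark 1 preparation, which the labels do not state. A replicate block on the label number gave 8 members called in mtDNA B6, 7 in mtDNA NZB and 0 for the difference of responses. Over all 10566 genes it called 1785, 1958 and 0. Of the members' calls it lost only that of *Fosl1* in mtDNA NZB (-1.16, edgeR adjusted p = 0.195). With the title number as the block the member counts were 8, 8 and 0, with 1 at rest and 0 after activation. Over all 10566 genes that block called 1872, 2439 and 0, with 37 at rest and 0 after activation. Low counts limit *Fosl1* (159 UMIs over all libraries), *Batf3* (984) and *Fosl2* (2461).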

Other observations

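Other list genes also lay apart in resting NZB 5 and 6, given as values and chosen after they were seen. *Spred2*, an inhibitor of RAS signalling to ERK, was at 105.9 and 86.3 CPM, against 15.5 to 23.2 CPM in the other 10 resting libraries. *Dusp10*, a phosphatase of JNK and p38, was at 1047 and 530.8 CPM, against 62.8 to 512.9 CPM. *Zfp36*, whose product speeds the decay of AU-rich mRNAs, was at 474.8 and 242.5 CPM, against 897.7 to 1660 CPM, and *Klf6* at 202.6 and 164.6 CPM, against 287.9 to 490.3 CPM.

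The ratio of the second table's counts to the UMI-corrected counts, summed over libraries, was 1.45 for *Jund* and 2.92 for *Fosl1*, beside 2.23 over all genes.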
